A study of Mus musculus with 24 samples.

Results

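Isg15, Usp18, Ifit1, Ifit2, Ifit3, Ifi44, Ifi35, Rsad2, Ifitm3 and Bst2 are antiviral effector genes and regulators of the type I interferon response. They were taken by symbol from the deposited expression table of B16F10-luc2 mouse melanoma cells, and all 10 were among its 12010 genes.

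Type I interferons bind a receptor on the cell surface, and the JAK1 and TYK2 kinases then activate transcription factors of the STAT family, among them STAT2, which acts together with IRF9. The resulting complex binds the interferon-stimulated response element, a DNA sequence upstream of interferon-stimulated genes. ISG15 is a ubiquitin-like protein that is attached to other proteins, USP18 is the protease that removes it and also restrains the interferon receptor, and the IFIT proteins bind viral RNA. RSAD2 (viperin) makes an antiviral nucleotide, IFITM3 blocks viral entry at endosomal membranes and BST2 (tetherin) holds budding virions at the cell surface. Ifi44 and Ifi35 are further interferon-induced genes.

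The cells are a luciferase-marked form of B16-F10, a mouse melanoma line, grown in culture in serum-containing medium with no added interferon named in the labels. Messenger RNA was sequenced from the 3′ end in the parental cells and 7 knockout (KO) lines of the related transcription factors MITF, TFE3 and TFEB, namely the MITF KO, TFE3 KO, TFEB KO, MITF/TFEB DKO (double KO), TFEB/TFE3 DKO, MITF/TFE3 DKO and TKO (triple KO), with 3 libraries of each. The MITF KO carries a frameshift in Mitf, and a small amount of a shortened MITF protein in it was considered possible in the study's text. The lines lacking MITF together with TFE3, TFEB or both were derived from the MITF KO by CRISPR-Cas9, and the remaining KO lines from the parental cells. Each line is a clone, so that the genotype and the clone cannot be told apart, and the labels do not say that the 3 libraries of a line came from separate cultures, so the p-values measure only the spread between these libraries, which may be technical.

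The libraries held 18300902 to 26667877 reads on genes. Levels are given as CPM, which are a gene's reads relative to its library's total after the authors' TMM scaling. Since reads come from the transcript's 3′ end, they do not grow with gene length. All 8 melanocyte markers were in the table, with a summed level of 15545 to 39331 CPM per library. Of other cell types, 0 of 7 T cell and NK cell markers and 2 of 8 macrophage markers were in it, the macrophage markers (Cd68 and Lyz2) at a summed 0.225 to 5.12 CPM, and 3 of 7 fibroblast markers and 1 of 4 endothelial markers (Pecam1) were measured. Tfe3 RNA was 35.4 to 38.4 CPM in the parental libraries, 8.01 to 14.4 CPM in the libraries of the TFE3 KO, the TFEB/TFE3 DKO and the MITF/TFE3 DKO, and 17.6 to 21.7 CPM in the TKO. Tfeb RNA was 7.87 to 10.3 CPM in the parental libraries and 2.06 to 5.27 CPM in those of the 4 lines with a Tfeb knockout. Mitf RNA was 763 to 797 CPM in the parental libraries, 1101 to 1470 CPM in the MITF KO and MITF/TFE3 DKO, 326 to 350 CPM in the TKO and 544 to 603 CPM in the MITF/TFEB DKO. A read from the 3′ end does not check a frameshift made elsewhere in the gene.

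The members lie on 8 chromosomes of mm39. Isg15 (ENSMUSG00000035692) is at chr4:156283883-156285303 on the minus strand with 2 exons in its canonical transcript, and Usp18 (ENSMUSG00000030107) at chr6:121222848-121247877 on the plus strand with 11. Ifit2, Ifit3 and Ifit1 follow each other on the plus strand of chromosome 19, at chr19:34527932-34554524, chr19:34560899-34566443 and chr19:34618271-34632174. Of the 50-base words in the last 500 bases of the Ifit3 transcript, 14.0% also occur in transcripts of other genes, 12.9% in those of Ifit3b alone, so that reads of Ifit3 and Ifit3b may not have been fully separated. The share was also 14.0% for Ifitm3, with pseudogene-like models and Ifitm2 among its matches, 0.665% for Isg15 and 0 for the other 7 members. Genes on the opposite strand overlap the ends of Ifit1 (Ifit1bl2), Ifi35 (Vat1), Isg15 (Gm46878), Usp18 (Gm44148) and Ifitm3 (Gm57251), and whether the counting used strand is not given in the sources used here.

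The stretches upstream of the start sites are shown for Isg15 and the IFIT genes, to set the windows with the letters searched for beside that of Ifit2, which has none. The letters GAAANNGAA, a core of the interferon-stimulated response element, are in capitals and were searched on both strands, so that they read TTCNNTTTC where they lie on the other strand. Overlapping matches were kept. The sequences are from RefSeq (GRCm38.p6), run 5′ to 3′ along the gene's strand and end at the base before the start site, and each was placed in mm39 by its only exact match on the chromosome.
Isg15, chr4:156285276-156285525, minus strand: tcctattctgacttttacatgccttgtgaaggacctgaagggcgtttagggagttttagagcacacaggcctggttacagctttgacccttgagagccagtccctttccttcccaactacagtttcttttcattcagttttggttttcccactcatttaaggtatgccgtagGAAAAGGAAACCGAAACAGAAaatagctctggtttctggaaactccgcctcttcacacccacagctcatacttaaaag
Ifit1, chr19:34618039-34618288, plus strand: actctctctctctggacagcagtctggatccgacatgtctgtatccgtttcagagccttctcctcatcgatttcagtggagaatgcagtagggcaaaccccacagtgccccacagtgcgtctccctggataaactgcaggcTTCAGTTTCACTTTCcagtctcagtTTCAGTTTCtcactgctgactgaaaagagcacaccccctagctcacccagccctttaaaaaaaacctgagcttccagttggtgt
Ifit3, chr19:34560679-34560928, plus strand: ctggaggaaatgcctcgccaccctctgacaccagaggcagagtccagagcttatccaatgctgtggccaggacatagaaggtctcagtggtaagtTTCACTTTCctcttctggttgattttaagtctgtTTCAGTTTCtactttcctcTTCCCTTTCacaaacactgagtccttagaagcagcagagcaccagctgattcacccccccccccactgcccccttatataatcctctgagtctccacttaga
Ifit2, chr19:34527844-34528093, plus strand: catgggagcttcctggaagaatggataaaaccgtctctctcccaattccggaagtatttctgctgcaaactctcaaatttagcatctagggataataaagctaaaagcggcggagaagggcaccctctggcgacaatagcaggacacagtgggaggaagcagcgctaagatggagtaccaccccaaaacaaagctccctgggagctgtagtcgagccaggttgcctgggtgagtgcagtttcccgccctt

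The Isg15 window held 3 overlapping matches that start 78, 72 and 66 bases before the start site. Ifit1 held 3, at 109, 103 and 84 bases before it, and Ifit3 held 3, at 155, 121 and 102 bases before it. Neither of the 2 windows of Ifit2 in the table held a match in its 300 bases, which include the first 50 bases of the transcript. In the other members, single matches with 6 bases on either side are shown to let the letters be compared.
Rsad2, 119 bases before the start site: ccaactTTCATTTTCagaaaa
Ifi44, 3 bases before the start site: tttctcTTCATTTTCtacagg
Bst2, 130 bases before the start site: ttccagGAAAATGAAactgaa
Bst2, 124 bases before the start site: gaaaatGAAACTGAAaggctg
Ifitm3, base 20 of the transcript: ttctgaGAAACCGAAactgcc

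The letters were found in 7 of the 9 members with a window, and in 8.53% of the 32544 promoter windows of the same length in the table. Ifi35 and Ifit2 had none, and Usp18 had no entry. The E-box letters CACGTG, which MITF, TFEB and TFE3 can bind, were in 0 of the members' 10 windows and in 7.17% of all windows. The longer form TCACGTGA, which contains CACGTG, was in 0 of 10 and in 0.983% of all windows. A match is a description of the letters and no match says only that they are not in this window.

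**Figure D1:**
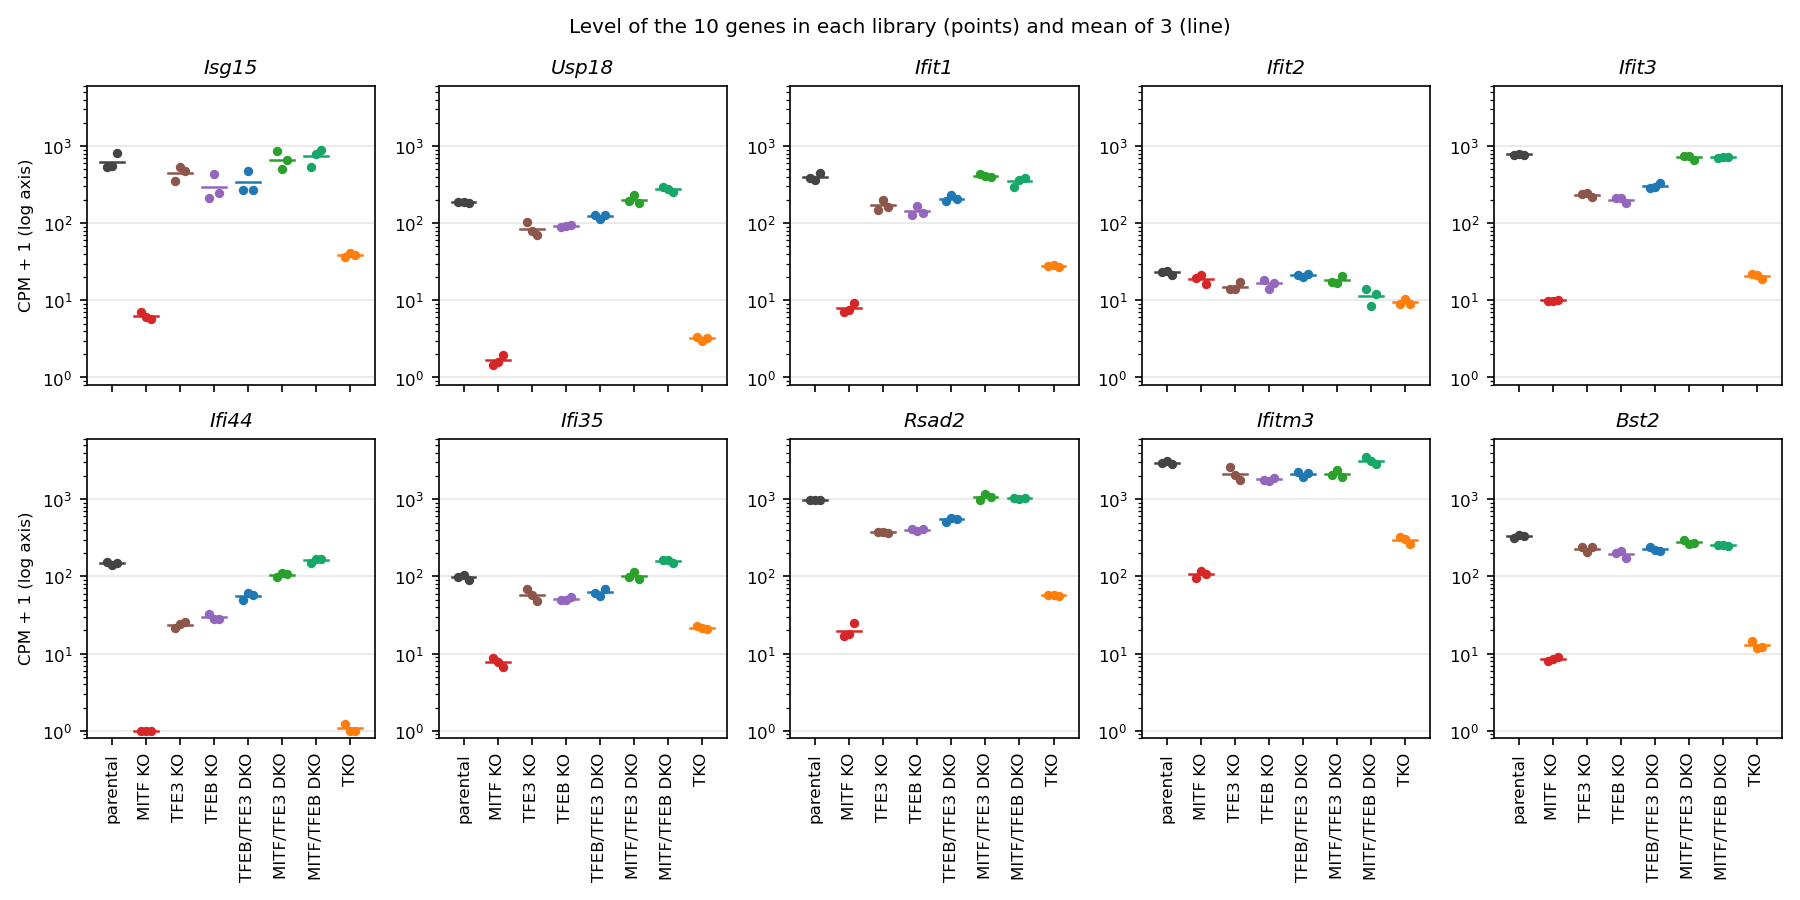
Level of each gene (CPM + 1, log axis) in the 3 libraries of each line (points) with their mean (line), for the 8 lines on the x axis. In 9 of the 10 panels the MITF KO (red) and the TKO (orange) lie below all other lines, with Ifi44 at 0 CPM in the 3 MITF KO libraries, whereas Ifit2 stays between 7.56 and 23.0 CPM in every library.

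In the parental cells, the ISG15 protein's gene and its protease were both well expressed, and in the MITF KO both were close to silent. Isg15 was at 528, 553 and 804 CPM in the parental libraries and at 6.07, 5.10 and 4.74 CPM in the MITF KO, a mean 118-fold lower. It was at 850, 504 and 650 CPM in the MITF/TFE3 DKO and at 527, 799 and 900 CPM in the MITF/TFEB DKO, so that the libraries of both overlapped the parental ones. In the TKO it was at 35.9, 39.7 and 37.3 CPM, above every MITF KO library and below every library of the other 6 lines. The TFE3 KO (350 to 531 CPM), the TFEB/TFE3 DKO (268 to 480 CPM) and the TFEB KO (211 to 437 CPM) overlapped each other.

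Usp18 gave the same order at the low end, with narrower groups. It was at 187, 186 and 184 CPM in the parental cells and at 0.471, 0.602 and 0.981 CPM in the MITF KO, which rest on 10, 15 and 18 reads. The libraries of the MITF/TFE3 DKO (179 to 230 CPM) overlapped the parental ones, and those of the MITF/TFEB DKO (256 to 292 CPM) lay above both. The TKO libraries held 2.33, 2.0 and 2.28 CPM. The single KOs of TFEB (89.1 to 94.1 CPM) and TFE3 (69.6 to 102 CPM) overlapped each other and lay below the TFEB/TFE3 DKO (114 to 128 CPM).

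Of the RNA-binding IFIT genes, Ifit1 and Ifit3 followed this pattern and Ifit2 did not. Ifit3 was at 769, 796 and 766 CPM in the parental cells, 8.85, 8.84 and 9.21 CPM in the MITF KO, 746, 744 and 649 CPM in the MITF/TFE3 DKO, 701, 714 and 722 CPM in the MITF/TFEB DKO, and 20.7, 20.4 and 17.7 CPM in the TKO. All MITF/TFE3 DKO and MITF/TFEB DKO libraries were below the parental ones, by little, and overlapped each other. Ifit1 was at 380, 358 and 440 CPM in the parental cells, 6.12, 6.43 and 8.34 CPM in the MITF KO, with 27.0, 27.7 and 26.4 CPM in the TKO, and its parental libraries overlapped those of the MITF/TFE3 DKO (393 to 432 CPM) and the MITF/TFEB DKO (294 to 388 CPM). Ifit2 was low throughout, at 22.5, 23.0 and 20.5 CPM in the parental cells and 18.3, 20.2 and 15.4 CPM in the MITF KO. Its lowest lines were the TKO (7.98, 9.56 and 8.04 CPM) and the MITF/TFEB DKO (12.9, 7.56 and 11.1 CPM), which overlapped, and each line overlapped its neighbour in the order of the means.

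Ifi44 was the only member without a read in all libraries of a line. It was at 153, 138 and 151 CPM in the parental cells, while no read was counted in any of the 3 MITF KO libraries, where a floor of 3 reads per library is 0.120 to 0.163 CPM. Measured against that floor, its mean was at least 1037-fold lower in the MITF KO than in the parental cells. In the TKO it had 6 reads in replicate 1 and 0 in the others. The other lines were separated from each other in the order MITF/TFE3 DKO (96.6 to 111 CPM), TFEB/TFE3 DKO (48.7 to 59.7 CPM), TFEB KO (27.1 to 31.9 CPM) and TFE3 KO (20.2 to 24.5 CPM), and the MITF/TFEB DKO (148 to 170 CPM) overlapped the parental cells.

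Ifi35, whose product is a leucine-zipper partner of NMI, fell the least of these 9 genes. It was at 96.6, 103 and 89.2 CPM in the parental cells, 7.72, 6.79 and 5.78 CPM in the MITF KO, with 21.9, 20.3 and 19.8 CPM in the TKO, and its level in the MITF/TFEB DKO (163, 160 and 149 CPM) was above that in every other line. Rsad2 was at 981, 966 and 990 CPM in the parental cells, 16.1, 16.7 and 24 CPM in the MITF KO, while the TKO libraries held 56.4, 56.0 and 55.4 CPM. For Rsad2 the MITF/TFE3 DKO (965 to 1163 CPM) and the MITF/TFEB DKO (1008 to 1049 CPM) overlapped each other.

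The membrane proteins showed the same separation. Ifitm3, the member with the highest level, was at 2929, 3164 and 2898 CPM in the parental cells, 95, 118 and 106 CPM in the MITF KO, while the TKO had 319, 301 and 263 CPM. The MITF/TFEB DKO (2872 to 3561 CPM) overlapped the parental cells, and the MITF/TFE3 DKO (1941 to 2369 CPM) overlapped the TFE3 KO and the TFEB/TFE3 DKO. Bst2 was at 316, 340 and 336 CPM in the parental cells, 7.01, 7.59 and 8.01 CPM in the MITF KO, with 13.5, 11.0 and 11.3 CPM in the TKO, and all libraries of the MITF/TFE3 DKO (266 to 300 CPM) and the MITF/TFEB DKO (244 to 257 CPM) were below the parental ones.

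Lines were compared with limma on log2(CPM + 1), a scale that understates the change of genes near 0, with calls made at a fold change of 2 or more and an unadjusted p under 0.05. The first comparison asks what loss of MITF alone did. In the MITF KO, 9 of the 10 members fell against the parental cells, whereas 2.99% of all genes were called lower, and the median log2 fold change was -5.64 over the members and 0.00059 over all genes. The members were chosen with earlier results of these data known, so the values over all genes only give the scale. Ifi44 was the lowest of the 10, so that setting it at its floor cannot move this median. Isg15 fell by 6.62 ± 0.26 (SE, log2; adjusted p = 9.6e-16), Usp18 fell by 6.80 ± 0.12 and Ifit3 fell by 6.29 ± 0.081, and Ifi35 fell by 3.65 ± 0.12. Ifit2 had a log2 fold change of -0.28 ± 0.15 (adjusted p = 0.15). In bulk samples, fewer cells expressing a gene and less RNA per cell cannot be told apart.

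**Figure D2:**
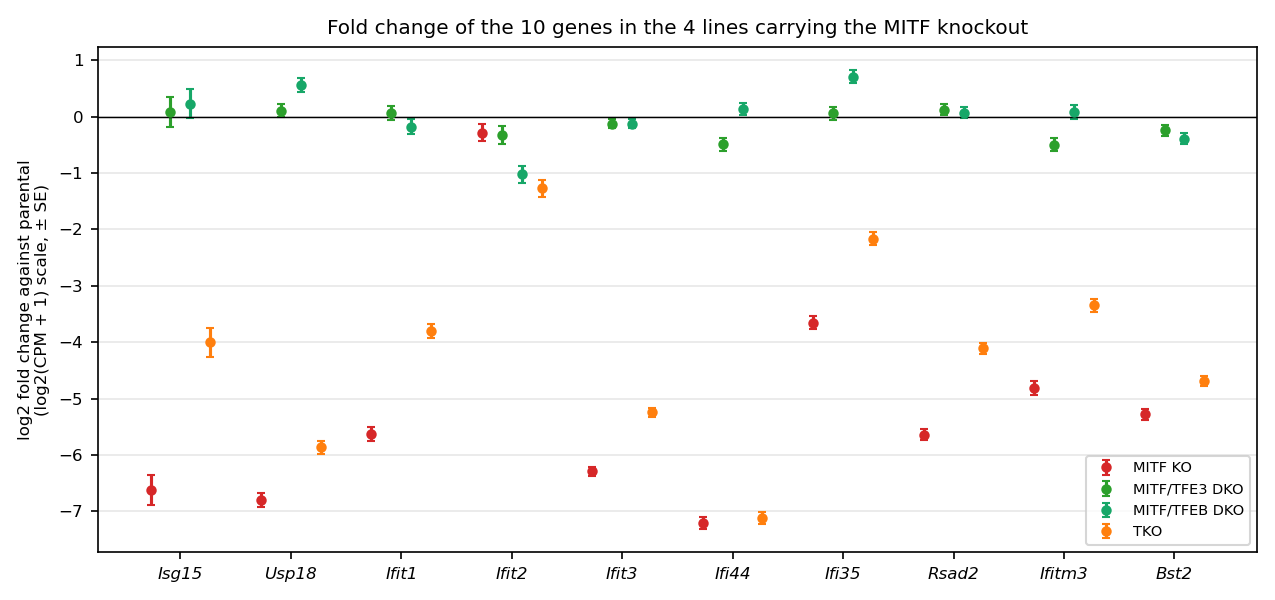
Log2 fold change of each gene against the parental cells (y axis, log2(CPM + 1) scale, bars ± SE) in the 4 lines carrying the MITF knockout (colours). The MITF KO points lie between -7.21 and -3.65 for all genes but Ifit2, those of both double knockouts between -1.02 and 0.71, and those of the TKO between -7.11 and -1.27; the Ifi44 points of the MITF KO rest on no read.

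Some members were also lower in the lines that kept MITF but lacked TFE3 or TFEB, by less. Since every line is a clone, a difference between clones cannot be told from an effect of the knockout. In the TFE3 KO, 5 of 10 fell (Usp18, Ifit1, Ifit3, Ifi44 and Rsad2; 1.34% of all genes were called lower), and in the TFEB KO 6 of 10 (these and Isg15; 0.591%). The largest changes were those of Ifi44, which fell by 2.65 ± 0.11 in the TFE3 KO (adjusted p = 6.4e-14) and by 2.32 ± 0.11 in the TFEB KO (adjusted p = 1e-12). Ifit3 fell by 1.73 ± 0.081 and by 1.95 ± 0.081. Isg15 fell by 1.13 ± 0.26 in the TFEB KO (adjusted p = 0.0096), a call that was lost without parental replicate 3 (-0.94) or TFEB KO replicate 1 (-0.92), and it was -0.47 ± 0.26 in the TFE3 KO (adjusted p = 0.25). Usp18 fell by 1.01 ± 0.12 in the TFEB KO, at the threshold, and its call was lost without TFEB KO replicate 1 (-0.99). In the TFEB/TFE3 DKO only Ifit3 (fell by 1.35 ± 0.081) and Ifi44 (fell by 1.40 ± 0.11) of the 10 passed, with 0.383% of all genes called lower. These 3 comparisons share the parental libraries.

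In cells lacking MITF, loss of either TFE3 or TFEB went with levels near those of the parental cells. Against the MITF KO, 9 of 10 members rose in the MITF/TFE3 DKO (3.39% of all genes were called higher) and 9 of 10 in the MITF/TFEB DKO (6.91%). Isg15 rose by 6.70 ± 0.26 and 6.85 ± 0.26 (log2; adjusted p = 9.3e-16 and 3.1e-16), Usp18 by 6.91 ± 0.12 and 7.36 ± 0.12, and Rsad2 by 5.76 ± 0.099 and 5.71 ± 0.099. Against the MITF KO floor, the mean of Ifi44 was at least 735-fold higher in the MITF/TFE3 DKO and at least 1138-fold higher in the MITF/TFEB DKO. The 2 comparisons share the MITF KO libraries. Ifit2 was -0.045 ± 0.15 in the first of these lines and -0.74 ± 0.15 in the second.

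Against the parental cells, 0 of 10 members passed in the MITF/TFE3 DKO, where 5.87% of all genes were called in either direction by limma. In that line 4 members had an unadjusted p under 0.05 below the fold change threshold. They were Ifi44 (-0.49 ± 0.11), Ifitm3 (-0.50 ± 0.12), Bst2 (-0.25 ± 0.092) and Ifit2 (-0.33 ± 0.15), and edgeR's count of members past the same threshold was also 0. The 95% interval of the log2 difference was -0.46 to 0.62 for Isg15, -0.14 to 0.36 for Usp18 and -0.29 to 0.043 for Ifit3. In the MITF/TFEB DKO, only Ifit2 passed (fell by 1.02 ± 0.15, adjusted p = 6.2e-06; 4.94% of all genes were called lower), and Ifi35 (0.71 ± 0.12, adjusted p = 2.2e-05) and Usp18 (0.56 ± 0.12, adjusted p = 0.00043) were the members with the largest positive values below the threshold. Between the MITF/TFEB DKO and the MITF/TFE3 DKO, 0 of 10 passed in limma or in edgeR, and 9.75% of all genes were called in either direction. Here 5 members had intervals that did not reach 0, namely Ifi35 (0.41 to 0.90), Ifi44 (0.40 to 0.85), Ifitm3 (0.33 to 0.82), Usp18 (0.20 to 0.70) and Ifit2 (-1.01 to -0.38), and their unadjusted p was under 0.05.

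When all 3 factors were lost, the members were low again. In the TKO, 10 of 10 fell against the parental cells (6.41% of all genes were called lower), with a median of -4.05, and with a pseudocount of 5 the count was 9, without Ifit2 (-1.0). Against the MITF/TFEB DKO 9 of 10 fell (1.98%), and against the MITF/TFE3 DKO 9 of 10 (5.75%), with medians of -4.20 and -4.15. Isg15 fell by 4.23 ± 0.26 and 4.08 ± 0.26 in these 2 comparisons (adjusted p = 9.5e-12 and 7.4e-12), and Ifi44 fell by 7.25 ± 0.11 in the first and fell by 6.62 ± 0.11 in the second. For most members the TKO was not as low as the MITF KO. Against the MITF KO, 6 of 10 rose (Isg15, Ifit1, Ifit3, Ifi35, Rsad2 and Ifitm3; 6.33% of all genes were called higher), with Isg15 at 2.62 ± 0.26 (adjusted p = 1.9e-08), Ifit1 at 1.83 ± 0.13 and Rsad2 at 1.54 ± 0.099. Usp18 was 0.94 ± 0.12, and with edgeR on the reads, which adds no pseudocount of 1, it rose by 1.72. Ifit2 went the other way (-0.99 ± 0.15, limma adjusted p = 1.4e-05), just short of the threshold. Ifi44 was 0.095 ± 0.11 (limma adjusted p = 0.49), and edgeR gave 4.0 (edgeR adjusted p = 0.03). Both values of Ifi44 rest on 6 reads in TKO replicate 1, with no read in the other TKO libraries or in the MITF KO. The 4 comparisons of the TKO share its libraries.

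The difference between lines with and without TFE3 or TFEB thus varied with the genotype, and that variation was tested itself. Each line is a clone, so genotype and clone cannot be told apart here, and all 3 tests share the MITF KO libraries. Loss of TFE3 raised Isg15 by 6.70 in the MITF KO and lowered it by 4.23 (-4.23) in the MITF/TFEB DKO, a difference of -10.93 ± 0.37 (adjusted p = 3.3e-17). This difference passed an absolute value of 1 and an adjusted p under 0.05 for 9 of 10 members, all negative (4.63% of all genes). Loss of TFEB in the MITF KO and in the parental cells differed by 7.98 ± 0.37 for Isg15, and 9 of 10 members passed with a positive value (7.39%). Loss of TFE3 in the MITF KO and in the parental cells differed by 7.18 ± 0.37 for Isg15, again with 9 of 10 positive (4.01%). Ifit2 passed in none of the 3 (-0.21 ± 0.22, -0.25 ± 0.22 and 0.58 ± 0.22, adjusted p = 0.52, 0.39 and 0.066; for the third the unadjusted p was under 0.05, and edgeR gave adjusted p = 0.068).

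Ifit2 was the member whose line means were least like those of the others. Over the 8 line means of log2(CPM + 1), its Pearson r with the mean z-score of the other 9 members was 0.24, whereas r was 0.94 (Ifi35) to 0.99 (Ifit3) for the rest, all given without a test. The genes around Ifit2 on chromosome 19 were lower in 2 of the lines. Of the 100 nearest measured genes around Ifit2 with a mean of at least 5 CPM, 86 had a negative log2 fold change in the MITF/TFEB DKO relative to parental cells (median -0.70, quartiles -1.01 and -0.32), and 85 in the TKO, with a median of -0.68 (quartiles -1.10 and -0.26). The medians were -0.12 to -0.031 in the other 5 KO lines. Ifit2 itself was -1.02 and -1.27 in these lines, -0.32 and -0.60 from its neighbours' medians. Its fall in the MITF/TFEB DKO was no longer past a fold change of 2 without parental replicate 2 (-0.99) or MITF/TFEB DKO replicate 2 (-0.82), and the part of the neighbours' shift in it was not tested. The windows of Ifit1 and Ifit3 hold nearly the same genes, and in the MITF/TFEB DKO Ifit1 was -0.18 ± 0.13 and Ifit3 -0.12 ± 0.081, above the neighbours' median of -0.70. For the 7 members on other chromosomes, the median of the 53 to 100 neighbours against the parental cells was between -0.42 (Rsad2, TKO) and 0.29 (Bst2, MITF/TFE3 DKO).

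**Figure D3:**
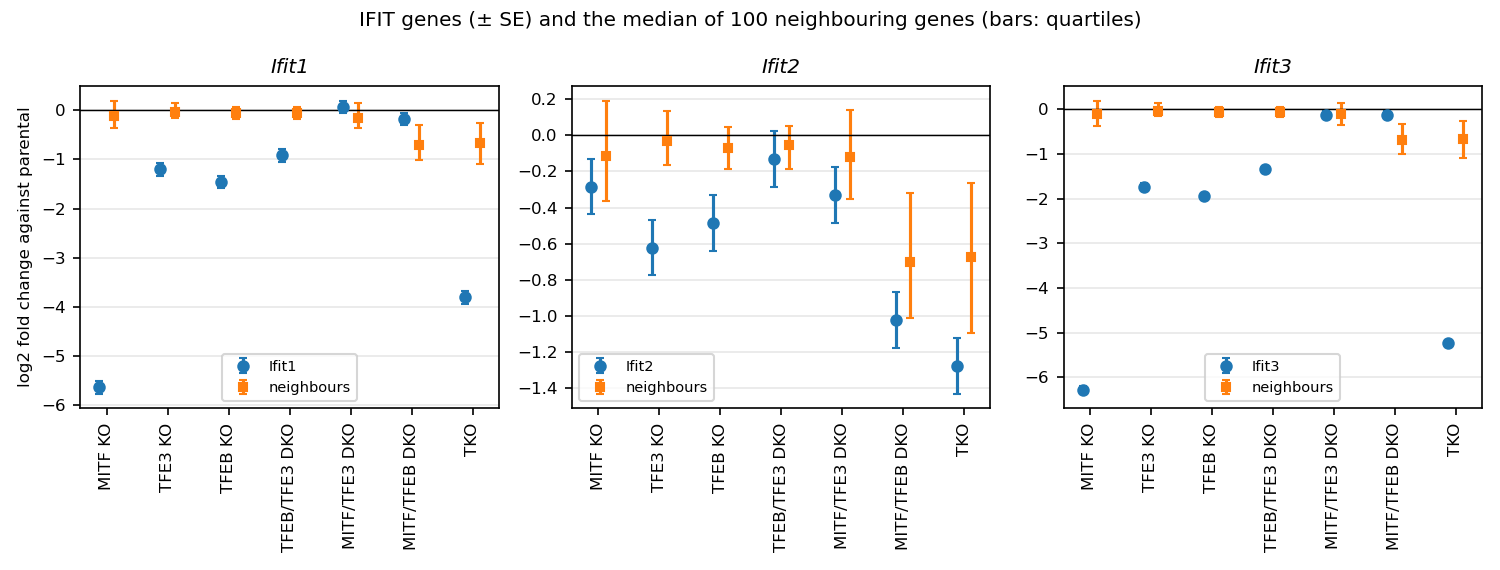
Log2 fold change against the parental cells (y axis) of Ifit1, Ifit2 and Ifit3 (circles, ± SE) and the median over the 100 genes around each (squares, bars from the lower to the upper quartile) in the 7 KO lines (x axis). The y axes differ between panels. Ifit2 stays within 1.27 of 0 and is lowest in the 2 lines where its neighbours are lowest, at medians of -0.70 and -0.68, whereas Ifit1 and Ifit3 are lowest in the MITF KO, where the neighbours' median is -0.12.

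Isg15 was the member that varied most between libraries of a line. Its pooled SD within lines was 0.37 on the log2 scale, whereas the median over genes of a like level was 0.13, and the other members ranged from 0.090 (Ifit3) to 0.19 (Ifit2). This spread ran along a component shared by many genes. The first principal component of the within-line deviations, computed over 9529 genes without the members, held 51.5% of their variance (the second held 9.28%), and 21.0% of these genes had an absolute r above 0.8 with it. The deviations of Isg15 had r = 0.94 and rho = 0.91 with it over 24 libraries (permutation within lines, p = 5e-05, adjusted over 10 members 5e-04), and r = 0.93 without the 2 libraries farthest from its median. Ifit1 had r = 0.81 (adjusted p = 0.0015, permutation) and Ifitm3 r = -0.74 (adjusted p = 0.0022, permutation), Ifi35 had r = -0.62 (adjusted p = 0.029, permutation), whereas Rsad2 and Bst2 had r = -0.062 and -0.017. With the component taken out, the SD of Isg15 was 0.13. What the component stands for was not tested. Its scores sum to 0 in each line because the deviations were taken from the line means. They therefore cannot show whether the source of this spread also differs between lines.

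**Figure D4:**
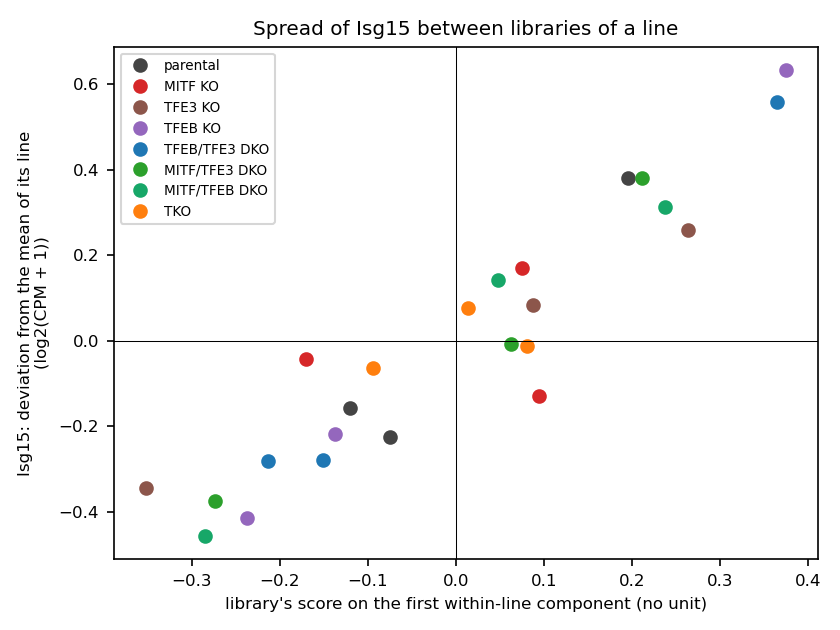
Deviation of Isg15 from the mean of its line (y axis, log2(CPM + 1)) against the library's score on the first within-line component of other genes (x axis, no unit), 1 point for each of the 24 libraries, coloured by line. The points rise together from -0.46 to 0.63 on the y axis, with r = 0.94.

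The other genes of the ISG15 pathway were not all affected alike. Of the 4 measured genes of ISG15 conjugation, 2 fell in the MITF KO (2.99% of all genes were called lower). Ube2l6, the E2 enzyme, was at 78.7, 95.6 and 108 CPM in the parental cells and at 3.81, 3.33 and 3.76 CPM in the MITF KO and fell by 4.35 ± 0.18 (adjusted p = 2.7e-15), and Herc6, the E3 ligase in mice, fell by 1.80 ± 0.10. Uba7, the E1 enzyme, was at 35.7, 39.3 and 37.7 CPM in the parental cells and at 23.4, 24.7 and 21.1 CPM in the MITF KO, with a log2 fold change of -0.68 ± 0.11. Its highest line was the MITF/TFEB DKO, at 111, 114 and 100 CPM, where it rose by 1.5 ± 0.11 against the parental cells (adjusted p = 3.8e-11). Arih1, another ligase, ranged from a mean of 74.4 CPM in the MITF KO to 110 CPM in the TFE3 KO and was called in no comparison. In the TKO against the parental cells, Ube2l6 fell by 3.63 ± 0.18 and Herc6 by 1.28 ± 0.10. In the MITF/TFE3 DKO, Ube2l6 had a mean of 46.9 CPM, against 93.9 CPM in the parental cells.

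Among relatives and neighbours of the members, 4 of 7 measured genes fell in the MITF KO (2.99% of all genes were called lower). Ifit3b, the close copy of Ifit3, went from a mean of 186 ± 16.8 CPM (SD, n = 3) to 2.0 ± 1.07 CPM. Cmpk2, the neighbour of Rsad2, went from 91.3 ± 2.96 to 3.81 ± 0.464 CPM, Nmi, the partner of IFI35, from 63.6 to 8.41 CPM and Ifit1bl2 from 4.36 to 0.724 CPM. Ifitm2, next to Ifitm3, was at 88.7 CPM in the parental cells and 73.4 CPM in the MITF KO and was called in no comparison, and Ifit1bl1 and Ifitm5 had means under 1.5 CPM in every line.

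Of the signalling genes that carry the interferon response, some fell with the members in the MITF KO and others did not, and not all of the former were low in the TKO. Of the 13 genes of the JAK, STAT and IRF list, 6 fell in the MITF KO, among them Stat2, Irf1, Irf7, Irf9 and Socs3. The list's median was -0.75, and 2.99% of all genes were called lower there. Stat2 was at 27.4, 26.3 and 29.1 CPM in the parental cells, against 5.37, 4.90 and 4.90 CPM in the MITF KO, and fell by 2.24 ± 0.10 (adjusted p = 2e-14). Irf9 fell by 4.56 ± 0.11 (adjusted p = 9.6e-20). In the TKO, 4 of the 13 fell against the parental cells (6.41% of all genes were called lower). Among them, Stat2 fell by 1.71 and Irf9 fell by 2.55, and Irf7 also passed. Irf7 had no read in any MITF KO or TKO library and 34 to 43 reads in the parental ones. Irf1 was at 68.2 CPM in the parental cells, 23.2 CPM in the MITF KO and 50.7 CPM in the TKO, and Socs3, a feedback inhibitor of JAK signalling, was at 4.31, 1.19 and 6.07 CPM in these lines. Against the MITF KO, 5 of the 13 rose on further loss of TFE3 (3.39% of all genes were called higher) and 6 on further loss of TFEB (6.91%). Stat2 was higher in all MITF/TFEB DKO libraries (70.6 to 76.7 CPM) than in any parental library (26.3 to 29.1 CPM), and rose there by 1.36 ± 0.10 against the parental cells.

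The receptors and kinases that start the response did not pass the threshold in the MITF KO. Of 16 genes of interferons and their receptors, 6 were measured, all receptor chains. The interferon genes on this list were looked for and were not among the 12010 genes of the deposited table, so their levels are not known here. Ifnar1 and Ifnar2, the 2 chains of the type I receptor, were at 22.4 and 41.5 CPM in the parental cells and at 18.6 and 41.0 CPM in the MITF KO, with log2 fold changes of -0.25 ± 0.13 and -0.017 ± 0.083. The highest mean of Ifnar2, 66.3 CPM, was in the MITF/TFEB DKO. Ifngr1, Ifngr2 and Il10rb had means of 14.7 to 44.5 CPM across the lines, and Ifnlr1 of 0.662 to 3.01 CPM. Jak1 was at 241 CPM in the parental cells and 345 CPM in the MITF KO (0.52 ± 0.097), Tyk2 at 14.9 and 18.7 CPM, Jak2 at 18.5 and 19.7 CPM, and Irf3, a factor that acts upstream of interferon production, at 41.9 and 42.2 CPM. Irf2 rose by 1.19 ± 0.16 in the MITF/TFEB DKO and by 1.08 ± 0.16 in the TKO against the MITF KO, and Irf5 and Socs1 had means under 1.6 CPM in every line.

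**Figure D5:**
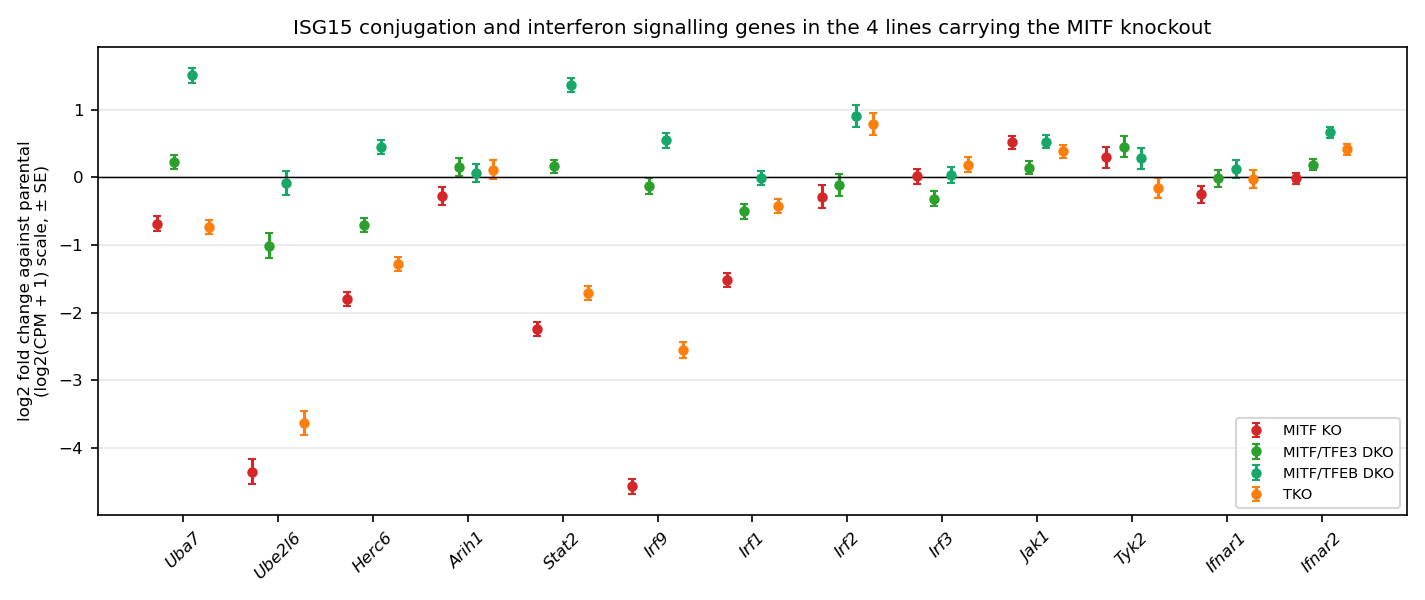
Log2 fold change against the parental cells (y axis, log2(CPM + 1) scale, bars ± SE) of genes of ISG15 conjugation and of interferon signalling (x axis) in the 4 lines carrying the MITF knockout (colours). Ube2l6, Stat2 and Irf9 are between -4.56 and -2.24 in the MITF KO, whereas Irf3, Tyk2, Ifnar1 and Ifnar2 are between -0.25 and 0.29 there.

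The wider sets of interferon-induced genes were low in the same lines. Of 21 measured genes of nucleic acid sensing, 14 fell in the MITF KO (median -2.44), where 2.99% of all genes were called lower. In the TKO, 13 of them fell against the parental cells (median -1.80), with 6.41% of all genes called lower. Relative to the MITF KO, 15 rose in the MITF/TFE3 DKO (3.39% of all genes were called higher) and 17 in the MITF/TFEB DKO (6.91%). The 4 with the widest range of line means were Oasl2, Oas2, Ifih1 and Oas1b, which encode members of the oligoadenylate synthetase family and the RNA sensor MDA5 (Ifih1). Oas2 was at a mean of 38.6 CPM in the parental cells, 0.036 CPM in the MITF KO, 38.1 CPM in the MITF/TFE3 DKO, and 65.7 CPM in the MITF/TFEB DKO, and its TKO mean was 0.446 CPM. Of 40 measured other interferon-stimulated genes, 37 fell in the MITF KO (median -3.75, 2.99% of all genes). In the TKO, 34 of them fell against the parental cells (median -2.50, 6.41% of all genes). Relative to the MITF KO, 37 rose in the MITF/TFE3 DKO (3.39% of all genes) and 39 in the MITF/TFEB DKO (6.91%). The 4 with the widest range were Apol9b, Apol9a, Iigp1 and Igtp. Igtp, a GTPase that acts on parasite-containing vacuoles, was at 76.3 CPM in the parental cells, 0.268 CPM in the MITF KO, and 186 CPM in the MITF/TFEB DKO, and its TKO mean was 3.53 CPM. The median over all genes was 0.00059 in the MITF KO and 0.014 in the TKO.

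The genes whose 8 line means were most like those of the members included further interferon-induced genes. Among non-members with a mean of at least 1 CPM, the highest Pearson r with the members' mean z-score were those of Xaf1 (0.995), Irgm1 (0.992), Oasl2, Eif2ak2, Rtp4, Oas1b, Ddx58, Ddx60, Ogfr and Mndal (0.984). These values are a description over 8 lines whose means share libraries and scaling. Ddx58 encodes the RNA sensor RIG-I and went from 263 CPM in the parental cells to 9.28 CPM in the MITF KO, and Eif2ak2, the kinase PKR, from 79.7 to 19.5 CPM. Ogfr, which encodes the opioid growth factor receptor, went from 165 to 57.7 CPM.

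The summed level of the 2 measured macrophage markers was 3.37 to 5.12 CPM in the TKO and MITF/TFEB DKO libraries and 0.225 to 2.62 CPM in those of the other lines. The sum of 3 fibroblast markers was 11.4 to 15 CPM in the parental libraries, 35.2 to 44.9 CPM in those of the MITF KO, 40.5 to 53.9 CPM in those of the MITF/TFEB DKO and 25 to 27.1 CPM in those of the TKO. The endothelial marker Pecam1 was at 7.73 to 8.59 CPM in the parental libraries and at most 0.627 CPM in those of the MITF KO, TKO and MITF/TFEB DKO. It was at 1.10 to 2.03 CPM in the MITF/TFE3 DKO and 1.82 to 2.79 CPM in the TFE3 KO. Levels above the parental ones were found in the TFEB KO (10.9 to 17.6 CPM) and the TFEB/TFE3 DKO (25.5 to 31.6 CPM). The part of these genes in the members' levels was not tested.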

How the data were processed

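B16F10-luc2 cells of 8 genotypes, 3 libraries each, were profiled with a 3′ end RNA-seq kit (QuantSeq Forward). Per the submitters' processing notes, FastQC 0.11.9, Trim Galore 0.6.5, cutadapt 2.10, STAR 2.7.8a and edgeR were used with mm39, and the authors deposited TMM-scaled CPM, a normalised signal, for 12010 genes. The counting tool, the annotation and the gene filter are not given in the sources used here. Reads per gene were rebuilt from the value of a single read in each library, and 99.998% of the values above 0 came within 0.1 of a whole number.

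Groups and replicate numbers came from the sample titles, and 0 columns were left unmatched. Lines were compared with limma 3.58.1 (R 4.3.3) on log2(CPM + 1) with a variance trend and all 24 libraries in 1 fit (16 residual degrees of freedom). Calls needed a fold change of 2 or more with an unadjusted p below 0.05. A difference of differences was counted at an absolute value of at least 1 and an adjusted p under 0.05. The p-values were adjusted over all 12010 genes (Benjamini-Hochberg). The alternatives were edgeR 4.0.16 (quasi-likelihood) on the reads, pseudocounts of 0.25 and 5, a mean of at least 5 CPM, median-of-ratios factors, no variance trend, fits on the compared libraries alone, calls on the adjusted p, a replicate block and each replicate left out. Both fits were tested on simulated data.

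The genes named are all members, the targeted genes, genes of 4 short lists (1 item of which is not reported here), the 4 genes with the widest range in each of 2 longer lists, and the 10 genes most alike. The members and lists were chosen with earlier results of these data known. Rigi is in the table as Ddx58. The correlations with a within-line component were computed after seeing the spread of Isg15. Promoters came from RefSeq (GRCm38.p6), gene positions from GENCODE on the files' build, and neighbours were up to 50 genes on either side with a mean of at least 5 CPM (fewer near a chromosome's end, with 53 in all for Isg15, 66 for Ifi44 and 92 for Ifitm3). The reads per library set the counting error, and floors of 3 reads cover counting error only. Same-numbered libraries of different lines had a mean correlation of deviations of 0.022 (lowest -0.66), so the numbers were not taken as pairs. No 2 libraries of a line agreed within sampling noise (lowest chi-square per degree of freedom 4.63).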

Additional observations from a re-analysis of the deposited data

Results flagged for a closer look

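For 9 of the 10 genes, the difference between lines with and without TFE3 or TFEB varied with the genotype in each of 3 tests. The tests used limma, with an absolute value of at least 1 on the log2 scale and an adjusted p under 0.05, and Ifit2 passed none. All 3 tests share the MITF KO libraries and so are not independent. The first is the difference of the TKO from the MITF/TFEB DKO minus that of the MITF/TFE3 DKO from the MITF KO. It was -10.93 for Isg15, -13.33 for Usp18, -9.32 for Ifit1, -11.28 for Ifit3 and -13.96 for Ifi44, and -6.58 for Ifi35, -9.94 for Rsad2, -7.74 for Ifitm3 and -9.33 for Bst2. The adjusted p ran from 4.8e-27 to 3.3e-17. The second is the effect of losing TFEB in the MITF KO minus its effect in the parental cells. It was 7.98 for Isg15, 8.37 for Usp18, 6.91 for Ifit1, 8.11 for Ifit3 and 9.66 for Ifi44, and 5.28 for Ifi35, 6.99 for Rsad2, 5.62 for Ifitm3 and 5.66 for Bst2. The adjusted p ran from 7.7e-24 to 2e-14. The third is the effect of losing TFE3 in the MITF KO minus its effect in the parental cells. It was 7.18 for Isg15, 8.07 for Usp18, 6.90 for Ifit1, 7.89 for Ifit3 and 9.37 for Ifi44, and 4.47 for Ifi35, 7.14 for Rsad2, 4.81 for Ifitm3 and 5.58 for Bst2. The adjusted p ran from 1.4e-23 to 2.5e-13. The values of Ifi44 rest on MITF KO libraries with no read and on the pseudocount. Each line is a clone, so that the genotype and the clone cannot be told apart.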

How the results depend on the processing

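The differences of differences kept their direction and side of the threshold under all 600 member-level recomputations, and of those of the fold changes 1797 did so, 9 lost a call, 14 gained one and 0 reversed. The number of members called lower between the MITF/TFEB DKO and parental cells, 1 (Ifit2), was 0 with a pseudocount of 5 and ran from 0 to 1 over left-out replicates, being 0 without parental replicate 2 and without MITF/TFEB DKO replicate 2. The number called lower in the TKO against the MITF KO, 0, was 1 (Ifit2) with edgeR and with a pseudocount of 0.25, and ran from 0 to 1 over left-out replicates, being 1 without MITF KO replicate 3 and without TKO replicate 2. The value of Ifit2 lay close to a fold change of 2 in both, and the cause was not tested. In the TKO against the MITF KO, Ifit3 lost its call with a pseudocount of 5 (0.82), Usp18 gained one with edgeR (1.72), a pseudocount of 0.25 (1.43) and without MITF KO replicate 3 (1.06), and Ifi44 with edgeR (4.0), so that the count of 6 higher ran from 5 to 8 over all settings. The gain of Ifi44 rests on 6 reads in TKO replicate 1. Against the parental cells, the 10 lower in the TKO were 9 with a pseudocount of 5, Ifit2 being at -1.0. Isg15 gained a call in the TFEB/TFE3 DKO without parental replicate 1 (-1.03) or 2 (-1.0) or TFEB/TFE3 DKO replicate 2 (-1.20). With the replicate block, all counts of called members were as without it, 9 lower in the MITF KO and 10 in the TKO, both relative to parental cells. Depth limits the lowest levels, such as Usp18 and Ifi44 in the MITF KO, whose fold changes depend on the pseudocount (Usp18 -6.80 with 1 and -5.07 with 5).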
